A study of Mus musculus with 20 samples.

Results

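A set of 10 genes of bile acid transport and sensing were followed in the cecum of mice fed with the TWD and increasing levels of RPS. They were chosen by name, with earlier results of these data known: Slc10a2, Fabp6, Slc51a, Slc51b, Abcc3, Abcb11, Nr1h4, Gpbar1, Nr0b2, and Fgf15. Of these 10 genes, 9 were found among the 19887 genes of the count table, and 7 of them were deep enough for a test. The RNA of Fgf15 was not analysed here, and Nr0b2 and Gpbar1 fell below the filter on low counts. The Total Western Diet (TWD) is a rodent diet modelled on the nutrient intake of the American population. Raw potato starch (RPS), also called resistant potato starch, is uncooked starch that largely escapes digestion in the small intestine and is fermented in the cecum. C57BL/6 mice were put on the TWD at 3 weeks of age according to the labels and ate it for 6 weeks. They then received the TWD with 0, 2, 5, or 10% RPS, in which RPS took the place of corn starch, for a further 3 weeks. RNA from sections of the cecum was sequenced for 5 mice per diet, 20 mice in all, and the mice of a diet are numbered from 1 to 5 here. All mice ate the TWD, so the 0% RPS group is a Western diet control and not a chow control. The labels do not give the sex of the mice.

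Bile acids are made in the liver from cholesterol, secreted into bile, and largely taken back up in the ileum. SLC10A2 (ASBT) imports them across the apical membrane, FABP6 binds them in the cytosol, and the SLC51A-SLC51B heterodimer (OSTα-OSTβ) exports them into the portal blood, with ABCC3 (MRP3) as a further basolateral exporter. The nuclear receptor FXR, encoded by Nr1h4, senses bile acids and drives genes such as Fabp6, Slc51a, Slc51b, Nr0b2 (SHP), and Fgf15, and GPBAR1 is a bile acid receptor of the cell surface. ABCB11 (BSEP) is the bile salt export pump of the hepatocyte. In the cecum and colon the bile acids are mostly the unconjugated and secondary forms made by bacteria.

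Mice fed with RPS had more Slc10a2 RNA than mice fed with the TWD alone, at all RPS levels and with no overlap between the mice, while 6 of the 7 tested genes had lower estimates with 10% RPS, beside 49.1% of all tested genes. The lower genes included both subunits of the basolateral exporter, the receptor gene Nr1h4, and Abcb11, which was present at only a few reads per mouse. Abcb11 was admitted by the filter on low counts only through mice on 0 and 2% RPS, so that it was tested because of the diets in which it was high, and without it 5 of 6 tested genes had lower estimates. No member passed the threshold in any comparison, set at an adjusted p of 0.05 (edgeR's quasi-likelihood test, Benjamini-Hochberg over 15348 tested genes) together with a change of 1.5-fold in either direction. With 10% against 0% RPS, 0 of 7 passed, beside 1.04% of all tested genes. An unadjusted p under 0.05 was reached by 6 of 7, beside 19.5% of all tested genes. Of these, 1 was higher, beside 9.74% of all genes, and 5 were lower, beside 9.75%, and without Abcb11 the counts were 5 of 6 and 4 lower. Since the genes were chosen with earlier results of these data known, these counts describe the list and do not test it. DESeq2's Wald test called 1, Slc10a2, of the 6 members to which it gave an adjusted p, and gave none to Abcb11. It called 359 of the 14151 genes with an adjusted p, or 2.34% of all tested genes. The median log2 fold change of the 7 genes with 10% RPS was -0.48, or -0.41 without Abcb11, beside 0.0041 over all tested genes. Set against the summed epithelial markers, the log2 ratios of the 6 lower genes with 10% RPS were each closer to 0, from -1.97 to -0.044. The comparisons with 2, 5, and 10% RPS share the same 5 control mice, so they are not independent of each other.

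Promoter sequence is given for the genes whose levels stood furthest apart between the diets, and for Slc51a because of a motif found upstream of it. The windows were read from GRCm39 on the strand of the gene, 5′ to 3′, ending just before the start of the Ensembl canonical transcript in GENCODE M39. None of the 250 bases before Slc10a2 or before Abcb11 overlapped another annotated gene. The first pair is in lower case throughout, since none of the motifs given below, each searched on both strands, was found in it.
Slc10a2, chr8:5155352-5155601, minus strand: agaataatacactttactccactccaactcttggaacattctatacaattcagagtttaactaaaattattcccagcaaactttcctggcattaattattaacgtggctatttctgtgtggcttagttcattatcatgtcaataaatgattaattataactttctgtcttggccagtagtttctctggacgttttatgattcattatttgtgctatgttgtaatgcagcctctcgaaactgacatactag
Abcb11, chr2:69173316-69173565, minus strand: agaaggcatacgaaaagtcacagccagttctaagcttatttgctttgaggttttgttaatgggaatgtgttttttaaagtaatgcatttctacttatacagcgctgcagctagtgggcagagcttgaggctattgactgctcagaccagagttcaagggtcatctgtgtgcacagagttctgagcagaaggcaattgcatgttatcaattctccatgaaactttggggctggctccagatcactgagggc
Slc51a, chr16:32307876-32307988, minus strand: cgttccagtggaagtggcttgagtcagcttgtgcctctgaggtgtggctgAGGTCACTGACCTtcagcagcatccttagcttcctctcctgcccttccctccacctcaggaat

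The Slc51a stretch lies further upstream, and its capitals mark a full inverted repeat with a spacer of 1 base, AGGTCANTGACCT, the kind of element that FXR binds with its partner RXR. The repeat starts 1096 bases before the Slc51a start, at chr16:32307926-32307938, in an intron of the long noncoding RNA gene Gm59898 on the other strand. Of 19827 promoters of 2000 bases, 3 held this full repeat, which is 0.0151%, and Slc51a was the only one of the listed genes among them. Its shorter core GGTCANTGACC was found in 0.177% of promoters of that length. The half-site AGGTCA, which is part of the full repeat, was found within 250 bases of the starts of Slc51b, 31 bases before it, and Nr1h4, and 12.8% of all 250-base promoters held it. Within 2000 bases 72.1% of promoters held the half-site. The longer motifs TCAAGGTCA (NR5A2) and CAAAGTCCA (HNF4A) were found in no listed gene within 2000 bases, beside 5.94% and 2.96% of all genes. These matches describe the letters of the windows, and binding was not measured.

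Slc10a2 (ENSMUSG00000023073, chr8:5133219-5155351, minus strand), the apical importer, was the member that differed most clearly in the direction of more RNA. Values are in CPM, the counts per 1000000 reads of a library after scaling by edgeR's TMM method. In mice 1 to 5 on 0% RPS its level was 73.4, 71.4, 78.4, 68.3, and 39.8 CPM. On 2% RPS it was 87.9, 114, 102, 83.0, and 142 CPM, and every one of these values was above the highest control mouse. On 5% RPS the values were 195, 165, 86.0, 111, and 190.3 CPM. On 10% RPS they were 169, 159, 84.3, 95.2, and 111 CPM. The lowest mouse of each RPS group lay between 83.0 and 86.0 CPM, just above the control mice, and the highest mice were far above them. A level higher than and not overlapping that of the control mice was found for 1.68% of all tested genes with 10% RPS, 1.53% with 5%, and 0.417% with 2%.

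The mean level of Slc10a2 was 66.3 ± 15.3 CPM (SD, n = 5) on 0% RPS, 106 ± 23.5 on 2%, 149 ± 48.7 on 5%, and 124 ± 38.3 on 10%. The highest mean was thus at 5% RPS, although the log2 difference between 10 and 5% RPS of -0.27 had a 95% interval of -0.78 to 0.24 that included 0. With 5% against 0% RPS the log2 fold change was 1.18 (SE 0.25, 2.26-fold), and the adjusted p of 0.051 in edgeR lay just outside the threshold. With 10% RPS it was 0.90 (SE 0.25, 1.87-fold), with an edgeR adjusted p of 0.0641. With 2% RPS it was 0.68 (SE 0.25, 1.60-fold), with an adjusted p of 0.815. A straight line over the RPS percentage had a slope of 0.080 on the log2 scale per percentage point (edgeR adjusted p = 0.18). Without mouse 5 on 0% RPS, the lowest control mouse, the log2 fold change was 1.04 with 5% RPS and 0.78 with 10% RPS, with edgeR adjusted p-values of 0.0563 and 0.119. Without mouse 4 on 10% RPS it was 0.99 with 10% RPS and the adjusted p was 0.0405 in edgeR, which passed the threshold, as did 1.95% of all genes in that fit. DESeq2's Wald test gave adjusted p-values of 0.000394 with 5% and 0.00714 with 10% RPS.

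**Figure D1:**
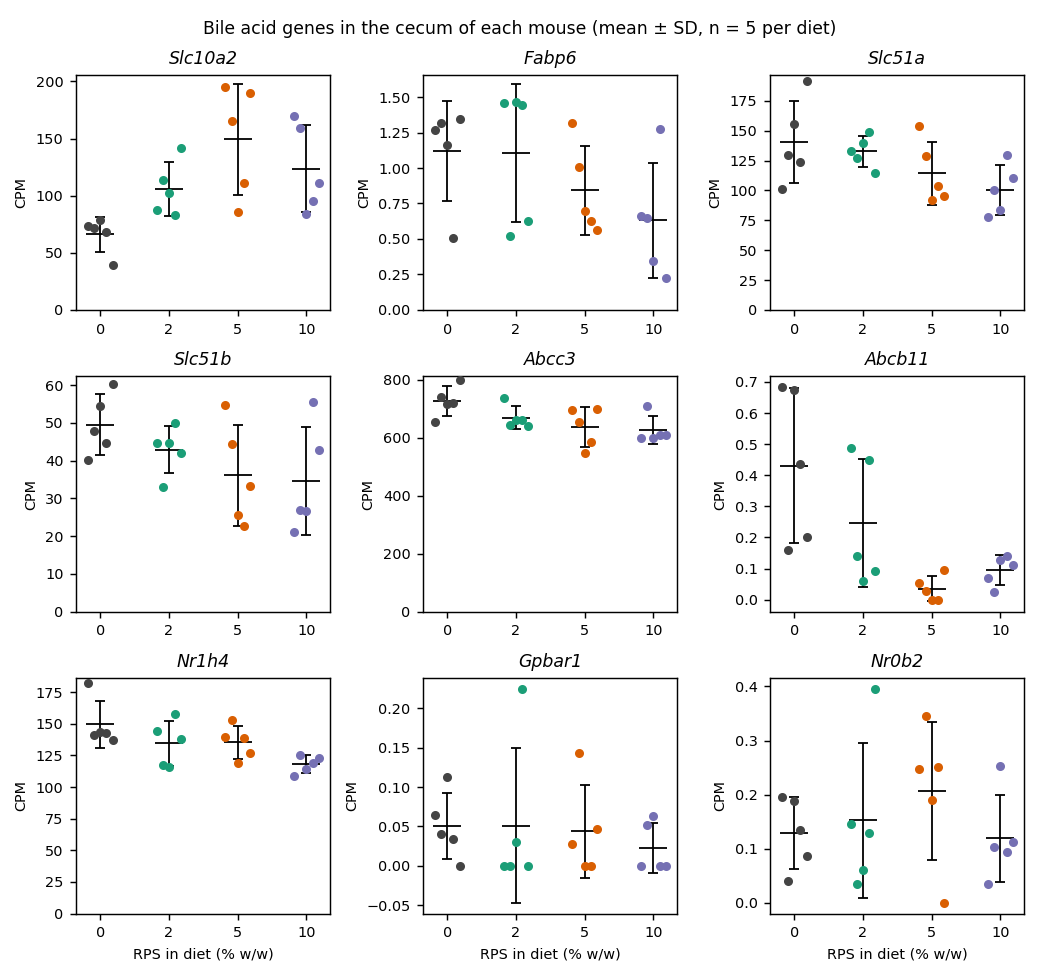
Level of the 9 bile acid genes in each mouse, in CPM scaled by TMM (vertical axes, linear, different in each panel) against the percentage of RPS in the TWD (horizontal axes). Points are mice, long bars are means, and whiskers are SDs (n = 5 per diet). All mice fed with RPS lie above the 5 control mice for Slc10a2, and the mice on 5 and 10% RPS lie below them for Abcb11.

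Fabp6 (ENSMUSG00000020405, chr11:43486872-43492469, minus strand), the cytosolic binding protein that accompanies SLC10A2 in the ileum, was low in the cecum. It had between 6 and 49 reads per mouse. Its level was 1.12 ± 0.35 CPM (SD, n = 5) on 0% RPS, 1.11 ± 0.49 on 2%, 0.84 ± 0.31 on 5%, and 0.63 ± 0.41 on 10%, and the mice of all diets overlapped. Its log2 fold change on 10% RPS was -0.85 (SE 0.41) with a 95% interval of -1.71 to 0.0099, and the edgeR adjusted p was 0.263. The interval therefore covers both no difference and a level lower by 1.71 on the log2 scale. With 5% RPS the log2 fold change was -0.39 (edgeR adjusted p = 0.767), and between -0.61 and -0.28 with 1 mouse left out. Slc10a2 and Fabp6, which act one after the other in the ileal cell, had estimates of opposite sign on each RPS diet. The Fabp6 estimate with 2% RPS was only -0.029 (SE 0.40), however, and the 95% intervals of Fabp6 included 0 on every RPS diet.

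Slc51a (ENSMUSG00000035699, chr16:32293322-32306842, minus strand) encodes the larger subunit of the basolateral exporter. In mice 1 to 5 on 0% RPS its level was 101, 129.5, 156, 124, and 191 CPM. On 10% RPS it was 77.7, 100.1, 84.0, 129.7, and 110.5 CPM. The groups overlapped, since mice 4 and 5 on 10% RPS lay above the lowest control mouse. The means were 140.3 ± 34.5 CPM (SD, n = 5) on 0% RPS, 133 ± 13.0 on 2%, 115 ± 26.3 on 5%, and 100.4 ± 20.9 on 10%. The log2 fold change with 10% RPS was -0.48 (SE 0.17, 1.40-fold lower), with an edgeR adjusted p of 0.129. Without mouse 5 on 0% RPS, the control mouse with the highest level, it was -0.33, with an edgeR adjusted p of 0.293. The slope was -0.050 on the log2 scale per percentage point of RPS (edgeR adjusted p = 0.0948).

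Slc51b (ENSMUSG00000053862, chr9:65319995-65330597, minus strand) encodes the small subunit, without which SLC51A does not reach the membrane. Its level was 40.04, 47.9, 54.5, 44.7, and 60.3 CPM in mice 1 to 5 on 0% RPS. On 10% RPS it was 21.1, 26.9, 26.7, 55.4, and 42.8 CPM. Mice 1 to 3 on 10% RPS lay below all control mice and mice 4 and 5 among them. The means were 49.5 ± 8.01 CPM (SD, n = 5) on 0% RPS, 42.9 ± 6.20 on 2%, 36.1 ± 13.4 on 5%, and 34.6 ± 14.2 on 10%. With 10% RPS it differed from the controls by a log2 fold change of -0.52 (SE 0.25), with an edgeR adjusted p of 0.256 and a 95% interval from -1.04 to just below 0.

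The subunits followed each other from mouse to mouse. Across the 20 mice Pearson's r of log2 CPM between Slc51a and Slc51b was 0.871. Of 15347 genes compared with Slc51b, Slc51a ranked first, and Slc51b ranked 7 for Slc51a. The ratio of Slc51a to Slc51b, in CPM per kilobase of exon, was 0.82 ± 0.070 (SD, n = 5) on 0% RPS, 0.91 ± 0.12 on 2%, 0.98 ± 0.22 on 5%, and 0.90 ± 0.18 on 10%, so that the subunit RNAs were near 1 to 1 on every diet. The ratio of Slc10a2 to Slc51a was 0.45 ± 0.17 on 0% RPS, 0.72 ± 0.24 on 2%, 1.16 ± 0.36 on 5%, and 1.15 ± 0.51 on 10%. Every mouse on 5% RPS, with ratios from 0.826 to 1.77, and every mouse on 10% RPS, with ratios from 0.647 to 1.92, lay above the highest control mouse at 0.64. The ratio of Slc10a2 to Slc51b was 0.36 ± 0.11 on 0% RPS, 0.66 ± 0.21 on 2%, 1.10 ± 0.26 on 5%, and 1.10 ± 0.67 on 10%. For this ratio the diets of 0 and 10% RPS overlapped, since mouse 4 on 10% RPS, at 0.443, lay below control mouse 1 at 0.473. How many other pairs of genes separate the diets in this way was not counted. Both correlations and ratios are descriptions, since genes of 1 library share its depth and its cell composition.

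**Figure D2:**
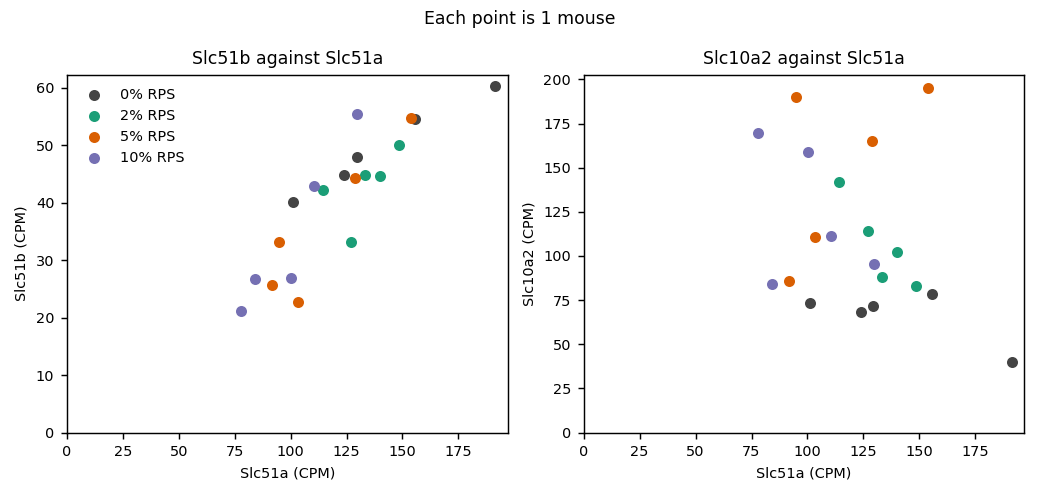
Slc51b against Slc51a (left) and Slc10a2 against Slc51a (right), in CPM, with 1 point per mouse coloured by diet. The exporter subunits lie along a line (r = 0.871 on log2 CPM over 20 mice), whereas Slc10a2 is lowest in the control mice whatever their Slc51a level.

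Abcc3 (ENSMUSG00000020865, chr11:94233874-94283823, minus strand), the multidrug resistance protein that also exports glucuronidated bile acids, was the most abundant member. It ranged from 654 to 799 CPM on 0% RPS, with a mean of 725.8 ± 52.3 (SD, n = 5). On 10% RPS it ranged from 598 to 710.8 CPM around 626 ± 47.9, and mouse 2 alone lay among the control mice. Its log2 fold change was -0.21 with 10% RPS (SE 0.083, 1.16-fold lower) and -0.19 with 5% RPS, with edgeR adjusted p-values of 0.164 and 0.319. Set against the summed epithelial markers, these differences were -0.044 and -0.029. The 95% interval with 10% RPS, from -0.39 to -0.042, lay within 1.5-fold of no difference.

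Abcb11 (ENSMUSG00000027048, chr2:69068544-69173315, minus strand) had the lowest level of the tested members, with 115 reads over all 20 mice. Mice 1 to 5 had 21, 4, 18, 13, and 7 reads on 0% RPS and 10, 4, 2, 14, and 4 on 2% RPS. They had 2, 1, 0, 0, and 2 reads on 5% RPS and 2, 1, 4, 3, and 3 on 10% RPS. No mouse on 5% RPS and only mouse 3 on 10% RPS had more than 3 reads, which is taken here as the floor of a library, and all control mice had more. In CPM the control mice ranged from 0.159 to 0.684, above the highest mouse on 5% RPS at 0.0942 and the highest on 10% RPS at 0.141. A level lower than and not overlapping that of the control mice was found for 2.04% of all tested genes with 5% RPS and for 3.2% with 10%.

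Summed over the mice of a diet, Abcb11 had 63 reads on 0% RPS, or 0.414 CPM (exact Poisson 95% interval 0.318 to 0.53), and 34 on 2% RPS, or 0.216 CPM (0.15 to 0.302). It had 5 reads on 5% RPS, or 0.0355 CPM (0.0115 to 0.0827), and 13 on 10% RPS, or 0.0911 CPM (0.0485 to 0.156). These intervals cover the counting error of the pooled reads only. They leave out the spread between mice, which had from 4 to 21 reads on 0% RPS and from 2 to 14 on 2%. Reads amplified by PCR are also not independent molecules. The intervals are therefore no comparison of the diets. The log2 fold change was -3.44 with 5% RPS (SE 0.74, 95% interval -4.99 to -1.89) and -2.20 with 10% RPS (SE 0.64, -3.52 to -0.87), with edgeR adjusted p-values of 0.052 and 0.073. With 2% RPS it was -0.88 (edgeR adjusted p = 0.902). The gene entered the test through 3 mice on 0% RPS and 2 mice on 2% RPS, the only mice above the filter's 0.332 CPM, so that it was tested because of the diets in which it was high. Without mouse 2 on 0% RPS the log2 fold change with 10% RPS was -2.39 and passed the threshold (edgeR adjusted p = 0.0438), beside 2.23% of all genes in that fit. Without mouse 1 on 5% RPS the difference of that diet also passed, with an edgeR adjusted p of 0.0492, beside 0.739% of all genes. ABCB11 is known from hepatocytes. The 7 measured hepatocyte markers summed to between 31.6 and 49.9 CPM in the control mice and between 34.0 and 55.6 CPM in mice fed with 10% RPS, most of it Ttr, at 32.6 ± 5.30 and 35.0 ± 3.39 CPM (SD, n = 5). With 10% RPS 4 of the 7 had higher means, and 1 of 4 tested, Slc10a1, had an unadjusted edgeR p under 0.05, at 0.75 ± 0.19 CPM on 0% RPS and 1.07 ± 0.30 on 10%, whereas the albumin gene Alb was at 0.37 ± 0.35 and 0.14 ± 0.14 CPM. Their part in the difference of Abcb11 was not tested.

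Nr1h4 (ENSMUSG00000047638, chr10:89289742-89369497, minus strand) encodes FXR, the bile acid receptor of the nucleus. In mice 1 to 5 on 0% RPS its level was 182, 142, 143, 143.0, and 137 CPM. On 10% RPS it was 109, 126, 114.5, 119, and 123 CPM, and all of these lay below the lowest control mouse, as for 3.2% of all tested genes. The means were 149 ± 18.6 CPM (SD, n = 5) on 0% RPS, 135 ± 17.9 on 2%, 135 ± 13.1 on 5%, and 118 ± 6.85 on 10%. The log2 fold change with 10% RPS was -0.34 (SE 0.096, 1.26-fold lower), with an edgeR adjusted p of 0.0698, and its 95% interval of -0.54 to -0.14 did not reach 1.5-fold. DESeq2's adjusted p was 0.0202, and the gene was not called there because of the fold threshold. Set against the summed epithelial markers the difference was -0.17. With 5 and 2% RPS the log2 fold changes were -0.14 and -0.15, with edgeR adjusted p-values of 0.571 and 0.902. Without mouse 1 on 0% RPS, the highest control mouse, the log2 fold change was -0.061 with 5% RPS and -0.26 with 10% RPS, with edgeR adjusted p-values of 0.862 and 0.157. The slope was -0.030 on the log2 scale per percentage point of RPS (edgeR adjusted p = 0.086).

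Gpbar1 (ENSMUSG00000064272, chr1:74316047-74318870, plus strand), the cell surface receptor, had 26 reads over the 20 mice. No read was found in 9 mice, and mouse 4 on 2% RPS had the most, 7. The reads per diet were 7, 8, 7, and 4 from 0 to 10% RPS. Nr0b2 (ENSMUSG00000037583, chr4:133280678-133283847, plus strand), a corepressor that FXR induces in liver and ileum, had 96 reads, and between 0 and 17 per mouse. The reads per diet were 19, 27, 32, and 18. No difference was detectable for either gene at this depth. The smallest p of 8 two-sided exact permutation tests over mice was 0.246, for Nr0b2 with 5% RPS, and the smallest adjusted over these 8 tests was 0.805.

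**Figure D3:**
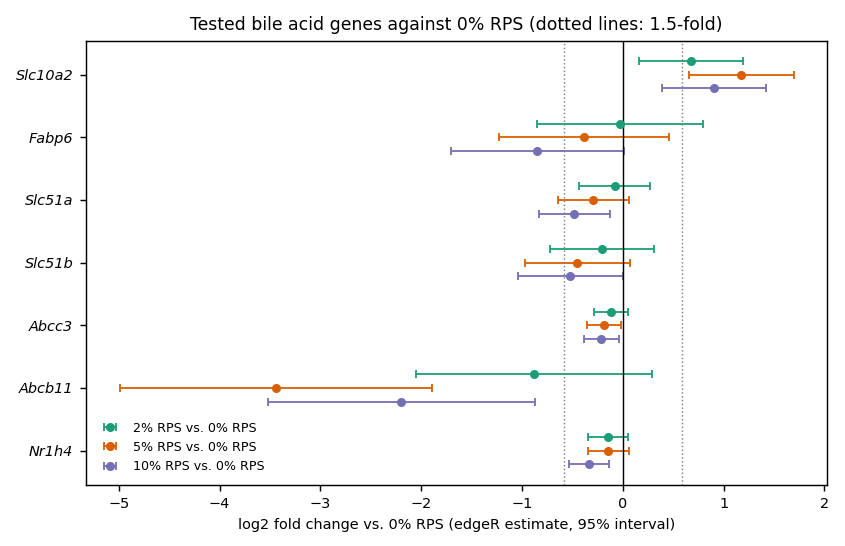
Log2 fold change of the 7 tested genes with 2, 5, and 10% RPS against 0% RPS (horizontal axis), as edgeR estimates with 95% intervals. The dotted lines mark 1.5-fold. Slc10a2 lies above 0 on all RPS diets with intervals that exclude 0. The estimates of the other 6 genes lie below 0, with the widest intervals for Abcb11 (-3.44 with 5% RPS and -2.20 with 10% RPS). With 2% RPS all intervals of these 6 genes include 0, with 5% RPS all but those of Abcc3 and Abcb11, and with 10% RPS only that of Fabp6.

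In edgeR the other comparisons also called no member. With 5% against 0% RPS, 0 of 7 members passed edgeR's threshold, beside 0.195% of all tested genes, and 3 reached an unadjusted p under 0.05, beside 13.3%. Of these, 1 was higher and 2 were lower, beside 6.74% and 6.54% of all genes. DESeq2 called 2, Slc10a2 and Abcb11, beside 1.6% of all genes. Abcb11, tested only through mice on 0 and 2% RPS, is 1 of the lower genes, and without it 2 of 6 members had an unadjusted edgeR p under 0.05 and DESeq2 called 1, Slc10a2. With 2% against 0% RPS, edgeR called 0 members and 0.0% of all genes, and 1 member, Slc10a2, had an unadjusted p under 0.05, beside 5.77%, or 2.58% for higher genes alone. DESeq2 called 0 members and 0.0326% of all genes with 2% RPS. With 10% against 5% RPS, edgeR and DESeq2 both called 0 members, 0 members had an unadjusted p under 0.05 beside 2.79% of all genes, and each called 0.0% of all genes.

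For a linear trend over the RPS percentage, edgeR called 0 of 7 members, beside 1.11% of all tested genes, whereas DESeq2 called 2, Nr1h4 and Slc51a, of the 6 with an adjusted p, Abcb11 having none, beside 4.65%. The unadjusted p of the trend was under 0.05 for 7 of 7, beside 18.8% of all tested genes. The slope was up for 1 and down for 6, beside 9.37% and 9.47% of all genes, and without Abcb11 it was up for 1 and down for 5 of 6. The slope of Abcb11, which was tested only through mice on 0 and 2% RPS, was -0.26 on the log2 scale per percentage point (edgeR adjusted p = 0.0708). In the test of any difference among the 4 diets, edgeR called 0 members, beside 0.0912% of all genes, and DESeq2's likelihood ratio test called 1, Slc10a2, beside 3.13%, again with no adjusted p for Abcb11. In edgeR 4 members had an unadjusted p under 0.05 in that test, or 3 of 6 without Abcb11, beside 11.1% of all genes.

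To compare genes with each other, CPM was divided by the length of the exons in kilobases. On 0% RPS the order was Abcc3 at 121.5 ± 8.76 CPM per kilobase (SD, n = 5), Slc51b at 46.3 ± 7.49, Slc51a at 38.3 ± 9.42, Nr1h4 at 30.8 ± 3.84, Slc10a2 at 15.96 ± 3.68, and Fabp6 at 1.60 ± 0.50. Abcb11 at 0.078, Nr0b2 at 0.060, and Gpbar1 at 0.032 came last. Abcc3 did not overlap any other gene, Slc51b overlapped Slc51a, and Slc51a overlapped Nr1h4, whereas Slc10a2 lay apart below them in every control mouse. The last 3 genes overlapped each other. On 5% RPS, Slc10a2 at 36.0 ± 11.7 CPM per kilobase came second and overlapped Slc51b at 33.8 ± 12.5, which in turn overlapped Slc51a. On 10% RPS it was at 29.8 ± 9.22, between Slc51b at 32.3 ± 13.3 and Slc51a at 27.4 ± 5.70, with overlap on both sides.

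**Figure D4:**
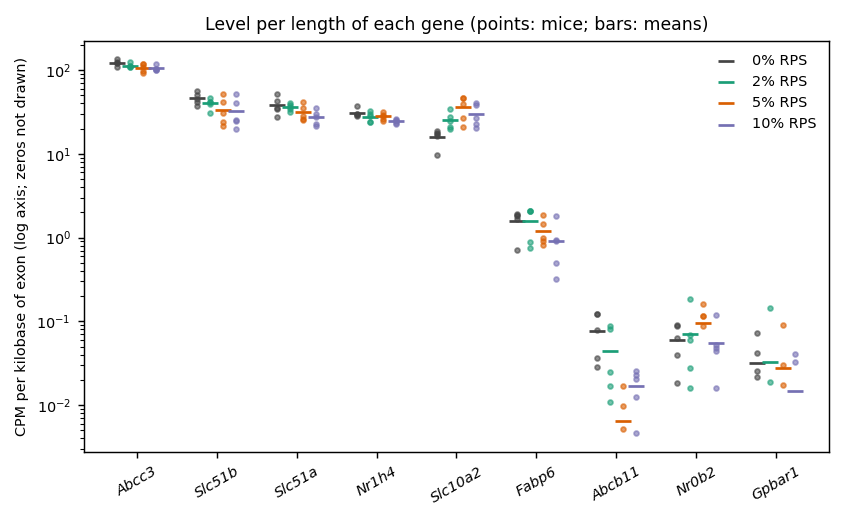
Level of each gene in CPM per kilobase of exon (vertical axis, logarithmic, mice with 0 reads not drawn), with 1 point per mouse and a bar at the mean of each diet. Abcc3 is highest on all diets (121.5 on 0% RPS), Slc10a2 moves from 15.96 on 0% RPS into the range of the exporter subunits, and Abcb11, Nr0b2, and Gpbar1 are far below Fabp6.

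The genes whose levels across the mice were most like those of Slc10a2, the member with the lowest p with 10% RPS, were Slc26a3, Slc39a14, and Mtmr4, with Pearson's r of 0.929, 0.831, and 0.83 of log2 CPM over 20 mice and 15347 genes. Slc26a3, the apical chloride-bicarbonate exchanger of the large bowel, was 1202 ± 167 CPM on 0% RPS, 1599 ± 226 on 2%, 1826 ± 374 on 5%, and 1833 ± 412 on 10% (SD, n = 5). Slc26a3 rose with 10% RPS by a log2 fold change of 0.61 (SE 0.16, edgeR adjusted p = 0.0486), a call that held in 2 of 10 fits with 1 mouse left out and was lost in the fit of only these diets (adjusted p = 0.0674). Slc39a14, a zinc and iron transporter, was higher by 0.41 on the log2 scale with 10% RPS at an edgeR adjusted p of 0.0316, below the fold change threshold. Mtmr4, a lipid phosphatase, differed by 0.16 (edgeR adjusted p = 0.319). The other members had r between -0.548 (Abcb11) and -0.257 (Fabp6) with Slc10a2.

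Among 48 other genes of bile acid handling, 46 were in the table and 40 were tested. The list holds transporters, nuclear receptors and regulators, the FGF15 receptor axis, and enzymes of synthesis and conjugation. With 10% against 0% RPS 1 of 40 passed the threshold, Abcb1a, beside the 1.04% of all genes, and 12 had an unadjusted p under 0.05, 4 higher and 8 lower, beside 19.5%. Their median log2 fold change was -0.019. Of these 12, 3 were among 11 tested transporters, 4 among 13 receptors and regulators, 2 among 5 genes of the FGF15 axis, and 3 among 11 synthesis and conjugation genes. Cyp7a1, the rate-limiting enzyme of bile acid synthesis, and Akr1d1 were not analysed here.

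Abcb1a, which encodes the efflux pump P-glycoprotein, fell with 10% RPS, and also with 5% RPS in the fit of all mice. Its level was 998 ± 120 CPM on 0% RPS (SD, n = 5), 729.4 ± 89.5 on 2%, 636 ± 125 on 5%, and 580 ± 103 on 10%. All control mice, at 910.1 CPM or more, lay above all mice fed with RPS, of which the highest had 845 CPM. A level lower than and not overlapping that of the control mice was found for 3.2% of all tested genes with 10% RPS and 2.04% with 5%. With 2% RPS it was found for 103 of 15348 tested genes. The log2 fold change of Abcb1a was -0.78 with 10% RPS (SE 0.14, edgeR adjusted p = 0.0111) and -0.65 with 5% RPS (adjusted p = 0.0434). The call with 10% RPS held in all 10 fits with 1 mouse left out, with edgeR adjusted p-values up to 0.0499, whereas that with 5% RPS held in 1 of 10, and without mouse 5 on 5% RPS, where edgeR called no gene at all, its adjusted p was 0.161. The fit of only 0 and 5% RPS gave an edgeR adjusted p of 0.0524. With 2% RPS it was -0.45 (edgeR adjusted p = 0.712). Its near-identical neighbour Abcb1b was counted at 1.90 ± 0.52 CPM on 0% RPS and 2.08 ± 0.27 on 10%, and reads shared by the 2 genes could have been divided between them.

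Nr1i2, the xenobiotic receptor PXR that also binds bile acids, was 132 ± 3.05 CPM on 0% RPS and 111 ± 9.22 on 10% (SD, n = 5), with no overlap, as for 3.2% of all tested genes, a log2 fold change of -0.25 (SE 0.074), and an edgeR adjusted p of 0.0787. Fgfr4, the receptor of FGF15, was 17.3 ± 4.41 CPM on 0% RPS and 10.8 ± 2.59 on 10%, with a log2 fold change of -0.69 (SE 0.22, edgeR adjusted p = 0.0993). DESeq2 called Fgfr4. Rxra, the partner of FXR, was 223 ± 25.2 CPM on 0% RPS and 227 ± 17.7 on 10%, with a log2 fold change of 0.029 (edgeR adjusted p = 0.883). The vitamin D receptor gene Vdr, which responds to lithocholic acid, differed by 0.15 on the log2 scale, and Nr5a2 (LRH-1) by 0.19, with edgeR adjusted p-values of 0.501 and 0.476. Klb, the coreceptor of FGFR4, differed by -0.51 and Malrd1, which promotes FGF15 secretion, by -0.27, with edgeR adjusted p-values of 0.629 and 0.399. For the exporter genes Abcc2 and Abcc4 and the sterol 27-hydroxylase gene Cyp27a1 the log2 fold changes were 0.22, -0.097, and 0.11, with edgeR adjusted p-values of 0.64, 0.782, and 0.645.

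**Figure D5:**
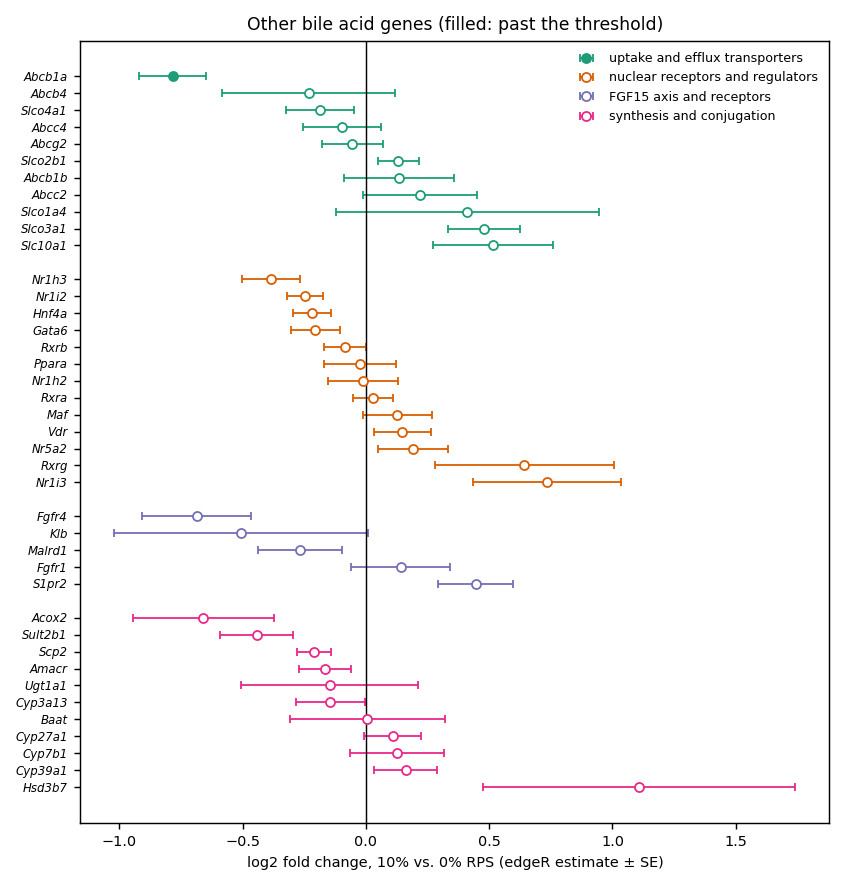
Log2 fold change with 10% against 0% RPS (horizontal axis, edgeR estimate ± SE) of the 40 tested other genes of bile acid handling, grouped by role. The filled point, Abcb1a at -0.78, passed the threshold, and open points did not.

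The total count per mouse was between 14967798 and 42687283, with a median of 30156799, and 3 reads were 0.2 CPM in the smallest library. The tissue label was checked against 9 epithelial and 8 large bowel markers, and all of these were above the floor on every diet. The epithelial markers summed to 12280 to 15830 CPM on 0% RPS, 12550 to 17130 on 2%, 11450 to 13320 on 5%, and 10870 to 15190 on 10%. With 10% RPS 8 of the 9 had lower means and 1 a higher one, 2 had an unadjusted edgeR p under 0.05, and 0 passed the threshold. The 12 markers of small intestinal enterocytes summed to between 1785 and 2394 CPM in the control mice and between 1295 and 2161 CPM with 10% RPS. Of the 11 tested, 4 had an unadjusted edgeR p under 0.05 with 10% RPS and 2 passed the threshold. These were Apoa4, an apolipoprotein gene, at 2.20 ± 0.27 CPM on 0% RPS and 0.25 ± 0.29 on 10%, and Alpi, the intestinal alkaline phosphatase gene, at 97.2 ± 15.2 and 57.3 ± 11.7 CPM (SD, n = 5), and their calls held in 8 and 4 of 10 fits with 1 mouse left out. The 8 large bowel markers summed to between 34630 and 38090 CPM on 0% RPS and between 26400 and 38390 CPM on 10%, and of these 5 had an unadjusted edgeR p under 0.05, 3 higher and 2 lower with 10% RPS. The lower ones were Car1, a carbonic anhydrase gene, at 25150 ± 2139 and 18630 ± 4056 CPM on 0 and 10% RPS (log2 fold change -0.43), and the water channel gene Aqp8, at 2026 ± 348 and 1358 ± 207 CPM (-0.58), with edgeR adjusted p-values of 0.0956 and 0.114. The 2 that passed the threshold were Slc26a3 and the serum amyloid gene Saa1, at 84.1 ± 37.4 and 255.4 ± 112.3 CPM (SD, n = 5), whose call held in 4 of 10 fits with 1 mouse left out and was lost in the fit of only these diets (edgeR adjusted p = 0.0662). The ranges on 0 and 10% RPS were 5.37 to 61.6 and 11.3 to 71.3 CPM for 6 Paneth cell markers, of which Defa17 had no reads on any diet. On 5% RPS, where the mean of Slc10a2 was highest, the range was 48.4 to 202.5 CPM. Most of that sum, with a mean of 120.9 CPM, was Ang4, at 112.3 ± 56.4 CPM against 19.2 ± 18.5 on 0% RPS. The paper counts Ang4 among goblet cell genes that Paneth cells also express. On 5% RPS 3 of the 6 markers were at or under the floor in every mouse, as on 0% RPS. The 6 enteroendocrine markers summed to 102 to 122 and 105.5 to 127 CPM on 0 and 10% RPS. On 0 and 10% RPS the sums were 74.3 to 124 and 93.0 to 121 CPM for 6 macrophage markers, 14.4 to 36.6 and 10.5 to 36.2 CPM for 6 T cell markers, and 4.71 to 184 and 13.01 to 241 CPM for 5 B cell markers. The median of this B cell sum was 16.7 CPM on 0% RPS and 201.2 CPM on 10%, and all 5 markers had higher means with 10% RPS, by 1.67 to 2.05 on the log2 scale, although the sums of the diets overlapped and none of the markers had an unadjusted edgeR p under 0.05. The part of these cell types in the differences of the members was not tested. The 6 smooth muscle markers summed to 2441 to 5668 CPM on 0% RPS, 3236 to 5660 on 2%, 4154 to 9680 on 5%, and 3993 to 6694 on 10%, and all 6 had higher means on each RPS diet. Of these, 4 of 6 had an unadjusted edgeR p under 0.05 with 10% RPS and 1, Actg2, passed the threshold, a call that held in 3 of 10 fits with 1 mouse left out. In whole tissue, fewer cells of a type and less RNA per cell cannot be told apart.

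Set against 1000 CPM of the summed epithelial markers, Slc10a2 was 4.85 ± 1.42 (SD, n = 5) on 0% RPS, 7.88 ± 2.41 on 2%, 11.9 ± 3.68 on 5%, and 10.01 ± 3.21 on 10%. On this scale the difference of Slc10a2 was a log2 ratio of 1.05 with 10% RPS, no smaller than in CPM. The log2 ratio with 10% RPS was -0.31 for Slc51a, -0.35 for Slc51b, -0.17 for Nr1h4, and -0.044 for Abcc3, each closer to 0 than in CPM. With 5% RPS the log2 ratio of Nr1h4 was 0.0054, so that its estimate did not keep its sign on this scale. With 10% RPS it was -1.97 for Abcb11 and -0.70 for Fabp6. The part of the tissue composition in these differences was not tested.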

How the data were processed

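Cecal RNA of 20 mice, 5 per diet (TWD with 0, 2, 5, or 10% RPS), was made into stranded mRNA libraries and sequenced single-end. After trimming by quality and removal of ambiguous reads, the authors aligned the reads to GRCm39 with CLC Genomics Workbench and deposited raw counts per gene and mouse, without normalization. Which annotation release was used, how reads matching more than 1 gene were treated, and whether strand was used in counting are not given in the sources used here. Mice were assigned to diets by their treatment labels. The labels number the mice individually.

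Of 19887 gene identifiers, 19827 were matched to GENCODE M39 for symbols, positions, and exon lengths. The tests were run in R 4.3.3, using edgeR 4.0.16 and limma 3.58.1. Genes were filtered with filterByExpr (minimum count 10, minimum total 15), which left 15348, scaled by TMM (factors 0.916 to 1.07), and fitted with a robust quasi-likelihood model of the 4 diets over all 20 mice. Adjusted p-values are Benjamini-Hochberg values over all tested genes, and the threshold was an adjusted p of at most 0.05 with an absolute fold change of at least 1.5, except for the trend and the 4-diet test, which had no fold threshold. All tests were two-sided. Before use the model was also run on simulated counts, and the outcome is not given here. Counts of mice on the same diet gave a chi-square per degree of freedom from 13.6 to 136, so none was a repeat of another. Total counts were between 14967798 and 42687283, at which the floor of 3 counts was at most 0.2 CPM. Promoters and tables were handled in Python 3.11.15 with pandas 2.3.3, numpy 2.4.6, scipy 1.17.1, and matplotlib 3.10.9.

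The genes named are the 10 listed, the other bile acid genes past the threshold in any comparison, 10 partners (Rxra, Nr1i2, Vdr, Nr5a2, Fgfr4, Klb, Malrd1, Abcc2, Abcc4, Cyp27a1), and the 3 genes most like the member with the lowest p; Abcb1b, the marker genes Alb, Ttr, Slc10a1, Car1, Aqp8, Defa17, Ang4, Apoa4, Alpi, Saa1, and Actg2, Cyp7a1, and Akr1d1 are named beside them. A motif and a gene are not reported here. The members and lists were chosen with earlier results of these data known. Markers of Paneth, enteroendocrine, and T cells, B cells, and macrophages were also summed. The alternatives were DESeq2 1.42.0 (size factors, and its own test), no filter, a mean of at least 10 counts, a fit without robust estimation, a fit of only the diets compared, no fold threshold, the rank of the diet, and each mouse left out in turn.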

Additional observations from a re-analysis of the deposited data

Results flagged for a closer look

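In 6 of 36 groups of 5 mice, 1 mouse stood far from the other 4 by Dixon's criterion, which chance meets in about 5% of groups. Slc10a2 was lowest in mouse 5 on 0% RPS at 39.8 CPM, with the nearest mouse at 68.3 CPM. Fabp6 was lowest in mouse 4 on 0% RPS at 0.504 CPM, with the nearest at 1.16 CPM. Nr1h4 was highest in mouse 1 on 0% RPS at 182 CPM, with the nearest at 143 CPM. Abcc3 was highest in mouse 1 on 2% RPS at 737.6 CPM and in mouse 2 on 10% RPS at 710.8 CPM, with the nearest at 662.9 and 610.6 CPM. Gpbar1 was highest in mouse 4 on 2% RPS at 0.225 CPM, which was 7 reads, with the nearest at 0.03 CPM. The flagged mice differ from gene to gene.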

How the results depend on the processing

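No member's log2 fold change with 5 or 10% RPS changed sign under any of these alternatives that gave a value, apart from Nr1h4 with 5% RPS on the scale of the epithelial markers (0.0054), and the counts with 2% against 0% RPS and with 10% against 5% RPS were 0 throughout. The other counts depended on the settings, and the cause was not tested. DESeq2's own test called 1 member with 10% RPS (Slc10a2), 2 with 5% RPS (Slc10a2 and Abcb11), 1 among the 4 diets (Slc10a2), 2 for the trend (Nr1h4 and Slc51a), and 2 other bile acid genes with 10% RPS (Abcb1a and Fgfr4). With 5% RPS, DESeq2's size factors in edgeR gave 1 call (Slc10a2), beside 0.222% of all genes, and the fit without robust estimation gave 2 (Slc10a2 and Abcb11), beside 0.274%. The rank of the diet gave 1 call for the trend (Abcb11), beside 3.51%, and called no other member. Abcb11 was tested only through mice on 0 and 2% RPS, the diets in which it was high, which limits each of its calls given here. Apart from Abcb11, Slc10a2 was the only member called with 5 or 10% RPS under any alternative. Leaving out single mice, members called numbered 0 to 1 with 10% RPS, 0 to 1 with 5% RPS, 0 to 2 for the trend, and 0 for the 4 diets, and with 10% RPS Abcb1a was the 1 other bile acid gene called each time. With 10% RPS the calls came without mouse 2 on 0% RPS (Abcb11) and without mouse 4 on 10% RPS (Slc10a2), beside 2.23% and 1.95% of all genes, and with 5% RPS without mouse 1 on 5% RPS (Abcb11), beside 0.739%. For the trend, 2 genes were called without mouse 3 on 2% RPS (Abcb11 and Nr1h4), beside 4.37% of all genes, and 2 without mouse 4 on 10% RPS (Abcb11 and Slc51a), beside 3.64%, against 1.11% with all mice. The fits of Abcb1a, Slc26a3, Apoa4, Alpi, Actg2, and Saa1 with mice left out were chosen after seeing the data. The log2 fold change of Slc10a2 with mice left out ranged from 0.77 to 1.02 with 10% RPS and from 1.04 to 1.32 with 5% RPS, and that of Abcb11 from -2.39 to -1.91 and from -3.91 to -3.11. Abcb11 had no value with a mean of at least 10 counts or with only the diets compared, since it did not pass those filters, and DESeq2 gave it no adjusted p with 10% RPS, for the trend, or for the 4 diets. The fit of only the diets compared ended the calls of Slc26a3 and Saa1 with 10% RPS and of Abcb1a with 5% RPS. Over the whole table, DESeq2's test called 359 genes with 10% RPS and 245 with 5% RPS, against 160 and 30 in edgeR. With 1 mouse left out, edgeR's counts over the whole table were 14 to 344 with 10% RPS (0.0907% to 2.23%), 0 to 114 with 5% RPS, 3 to 103 for the 4 diets, and 0 to 674 for the trend, against 170 with all mice, so that the shares of all genes depend on single mice. Depth limits Abcb11, Nr0b2, and Gpbar1, which had 115, 96, and 26 reads in all. No paired analysis was possible because no mouse number is shared by different diets.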
